A study of Mus musculus with 16 samples.

Results

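The genes described here are Tnik, Sox6, Klf11, Abcc9, Ache, Itpk1 and Banp, 7 of the 55359 gene IDs in the count tables and 7 of the 17531 genes tested. They were chosen by the smallest interaction p among well-expressed genes not placed in another named family, that is, because UVB changed them differently in mouse skin lacking both TNF receptors and in wild-type skin. The interaction is the UVB effect in knockout skin minus that in wild-type skin, on the log2 scale. Its values, and the 4 simple differences it is built from, are therefore given as a description without a test. Tests are given for the UVB effect averaged over both genotypes and for the knockout effect averaged over both treatments, which in this balanced design are separate contrasts from the one that chose the genes.

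Poly(A) RNA was sequenced from the back skin of male mice, 8 weeks old and labelled telogen, a resting stage of the hair cycle. The 4 groups were skin labelled Tnfrsf1a/b KO and 3xUVB (KO UVB), Tnfrsf1a/b KO without UVB (KO control), WT and 3xUVB (WT UVB), and WT without UVB (WT control), with 4 libraries each. No source used here gives the UVB dose and timing, the mouse strain or the deleted part of each receptor gene. The labels do not state whether each library is a different mouse, and p-values then reflect only the spread of these libraries, which may be technical.

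The libraries held 15644375 to 23200649 reads in genes. Tnfrsf1a averaged 95.8 ± 6.78 CPM (read counts scaled to TMM-normalised library size) in KO UVB and 85.9 ± 5.42 in KO control skin, against 151 ± 8.87 in WT UVB and 143 ± 6.67 in WT control skin (SD, n = 4 each). Tnfrsf1b averaged 20.1 ± 5.54 CPM in KO UVB and 20.8 ± 4.17 in KO control, against 40.9 ± 7.99 in WT UVB and 57.8 ± 13.4 in WT control skin. Transcripts of both targeted genes were thus lower and still present in KO libraries. Krt5 and Krt14, keratins of basal epidermis, and Col1a1, the main dermal collagen, were above 960 CPM in all 16 libraries. Markers of the growing hair follicle summed to 29.5 to 54.1 CPM in KO UVB, 112 to 348 in KO control, 43.3 to 215 in WT UVB and 1265 to 3197 in WT control libraries. The range of the WT control libraries lay wholly above those of the other groups, although all samples carry the telogen label. Within KO UVB skin, markers of differentiated keratinocytes summed to 54829, 32739, 24204 and 18319 CPM in libraries 1 to 4, and libraries 1 and 4 differed most of all replicate pairs, with a chi-square of 149 per degree of freedom. Neutrophil markers summed to 44.4, 61.7, 443 and 64.4 CPM in KO UVB libraries 1 to 4. Results on the 7 genes are also given without KO UVB libraries 3 and 4, which had the lowest keratinocyte sums. Library 1, with the highest keratinocyte sum, stays in that fit.

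The 7 genes come from different pathways. Tnik encodes a kinase named for its binding of TRAF2, an adaptor that TNF receptors recruit, and of NCK; it also acts on TCF transcription factors of the Wnt pathway. Sox6 and Klf11 encode transcription factors, Abcc9 the sulfonylurea receptor SUR2 of ATP-sensitive potassium channels, and Ache the enzyme that breaks down acetylcholine at nerve endings on muscle. Itpk1 encodes a kinase of soluble inositol phosphates, and Banp a BEN-domain protein that binds CGCG-containing motifs in CpG-rich promoters. Sox6, SUR2 and acetylcholinesterase are all known in skeletal muscle, a thin sheet of which lies under mouse dorsal skin.

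Promoter windows of 300 bases were at hand for 5 of the 7 genes (10 windows, RefSeq, GRCm38.p6), all but Tnik and Banp. The following 270 bases, 250 before and 20 after the annotated start, are shown for the genes whose windows hold the rarer matches among the motifs searched, with Itpk1 as a gene of the opposite direction. Windows and motifs were chosen with the sequences and the values in view. Capitals mark CACGTG (E-box), GGGCGG (GC box) and CTAAAAATA (MEF2 site), each on either strand.
Klf11, chr12:24651121-24651390, plus strand: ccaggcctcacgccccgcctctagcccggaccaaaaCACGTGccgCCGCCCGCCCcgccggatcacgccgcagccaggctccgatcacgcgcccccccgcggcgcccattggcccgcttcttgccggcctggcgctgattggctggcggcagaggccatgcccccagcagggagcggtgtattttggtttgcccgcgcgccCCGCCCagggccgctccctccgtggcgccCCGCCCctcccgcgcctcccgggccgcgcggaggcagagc
Ache, chr5:137288004-137288273, plus strand: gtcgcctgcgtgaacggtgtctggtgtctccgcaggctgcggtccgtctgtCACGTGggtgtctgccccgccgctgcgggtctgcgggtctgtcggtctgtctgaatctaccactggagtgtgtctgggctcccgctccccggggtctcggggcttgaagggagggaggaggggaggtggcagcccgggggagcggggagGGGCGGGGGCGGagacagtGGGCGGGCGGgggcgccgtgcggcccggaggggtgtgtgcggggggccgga
Abcc9, chr6:142702255-142702524, minus strand: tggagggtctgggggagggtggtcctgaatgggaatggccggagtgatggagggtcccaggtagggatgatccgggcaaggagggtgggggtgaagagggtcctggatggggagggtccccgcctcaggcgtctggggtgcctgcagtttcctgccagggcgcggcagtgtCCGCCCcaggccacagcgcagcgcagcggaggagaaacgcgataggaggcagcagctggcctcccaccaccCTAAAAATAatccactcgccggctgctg
Itpk1, chr12:102704850-102705119, minus strand: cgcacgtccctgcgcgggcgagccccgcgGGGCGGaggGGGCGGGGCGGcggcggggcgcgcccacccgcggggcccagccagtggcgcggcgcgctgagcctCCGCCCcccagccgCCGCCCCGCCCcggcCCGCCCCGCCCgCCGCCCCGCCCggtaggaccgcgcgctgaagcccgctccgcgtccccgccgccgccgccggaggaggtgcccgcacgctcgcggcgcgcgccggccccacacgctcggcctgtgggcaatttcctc

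CACGTG occurred once in the Klf11 and once in the Ache window, and 7.15% of all 32851 promoter windows hold it. The MEF2 site occurred in the Abcc9 window, 9 bases long and read on the printed strand, and 0.517% of all windows hold it. GGGCGG was found 10 times in the Itpk1 window, 4 times each in those of Klf11 and Ache and 1 time in that of Abcc9, and of the 6 Sox6 windows 1 held it, 4 times, against 35.7% of windows with at least 1 copy. Neighbouring copies of GGGCGG can overlap or abut in these counts. TGANTCA (AP-1) was in none of the 10 and in 7.81% of all, GGAATG (TEAD) was in 2 of the 6 Sox6 windows and that of Abcc9 and in 14.7% of all, and CCAAT was in 4 of the 10 (3 of Sox6 and that of Klf11) and in 37.4% of all. A match describes the letters only.

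Tnik had 23.4, 23.2, 20.7 and 21.4 CPM in the 4 KO UVB libraries, 39.7, 44.1, 44.1 and 45.9 in KO control, 27.9, 33.2, 29.7 and 29.2 in WT UVB and 37.2, 35.0, 34.2 and 34.3 in WT control libraries. No 2 groups overlapped, and the order was KO control, WT control, WT UVB, KO UVB from high to low. With UVB, Tnik differed by -0.97 ± 0.07 (log2 fold change ± SE) in KO and by -0.23 ± 0.07 in WT skin, an interaction of -0.74 ± 0.10. It was 1.96-fold lower in KO UVB than in KO control skin and 1.17-fold lower in WT UVB than in WT control skin.

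Sox6, whose product in mouse muscle represses genes of slow fibres, had 22.4, 21.97, 18.9 and 25.8 CPM in KO UVB libraries, 51.7, 37.0, 42.5 and 41.1 in KO control, 32.2, 33.9, 30.5 and 27.8 in WT UVB and 28.5, 34.8, 30.1 and 30.6 in WT control libraries. KO UVB libraries lay below and KO control libraries above all others, while the WT groups overlapped. The UVB difference was -0.95 ± 0.11 in KO and 0.01 ± 0.11 in WT skin, an interaction of -0.96 ± 0.16.

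Klf11, a Krüppel-like factor induced by TGF-beta that represses through the SIN3A corepressor, had 11.9, 11.2, 10.6 and 12.6 CPM in KO UVB libraries, 23.9, 33.2, 27.2 and 24.7 in KO control, 14.8, 15.1, 13.9 and 13.9 in WT UVB and 19.98, 19.3, 17.04 and 15.6 in WT control libraries. The 4 groups were again fully apart, in the same order as for Tnik. The UVB difference was -1.24 ± 0.11 in KO, 2.36-fold lower, and -0.32 ± 0.11 in WT skin, 1.25-fold lower, an interaction of -0.92 ± 0.15.

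Abcc9 had 53.8, 64.8, 52.9 and 65.5 CPM in KO UVB libraries, 120.1, 96.3, 109.6 and 101.8 in KO control, 92.7, 82.5, 76.3 and 77.7 in WT UVB and 82.5, 96.6, 85.8 and 86.0 in WT control libraries. Only the KO UVB libraries lay apart from their neighbours in the order, with each other group overlapping the next. The UVB difference was -0.85 ± 0.10 in KO and -0.09 ± 0.10 in WT skin, an interaction of -0.76 ± 0.14.

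Ache had 14.7, 11.9, 10.8 and 16.6 CPM in KO UVB libraries, 27.6, 29.7, 34.0 and 34.9 in KO control, 23.3, 23.9, 23.9 and 17.8 in WT UVB and 25.3, 24.6, 28.7 and 24.6 in WT control libraries. The KO UVB group lay below the WT UVB group and that below the WT control group, which overlapped KO control. The UVB difference was -1.22 ± 0.13 in KO, 2.33-fold lower, and -0.21 ± 0.13 in WT skin, an interaction of -1.01 ± 0.19.

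Itpk1 and Banp ran the other way in KO skin. Itpk1 had 22.05, 20.4, 24.6 and 21.2 CPM in KO UVB libraries, 16.9, 13.8, 14.6 and 12.6 in KO control, 16.4, 14.4, 18.6 and 17.8 in WT UVB and 22.5, 20.8, 17.7 and 19.6 in WT control libraries. KO UVB lay above KO control without overlap, and every neighbouring pair in the order of group means (KO UVB, WT control, WT UVB, KO control) overlapped. The UVB difference was 0.61 ± 0.11 in KO and -0.26 ± 0.11 in WT skin, an interaction of 0.87 ± 0.15.

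Banp had 12.1, 13.5, 17.96 and 18.5 CPM in KO UVB libraries, 10.5, 10.5, 11.3 and 12.0 in KO control, 13.7, 13.1, 13.5 and 14.2 in WT UVB and 17.8, 19.8, 19.9 and 16.8 in WT control libraries. KO UVB libraries 3 and 4 sat in the range of WT control and library 2 in that of WT UVB. KO UVB library 1, at 12.1 CPM, lay just above the highest KO control library, at 12.0 CPM. The spread of KO UVB was the widest of any group for this gene. The UVB difference was 0.49 ± 0.12 in KO and -0.45 ± 0.12 in WT skin, an interaction of 0.93 ± 0.17, which was 0.66 without KO UVB libraries 3 and 4. The other 6 genes gave -0.67 to -1.03 for those with a negative interaction and 0.82 for Itpk1 without these 2 libraries.

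**Figure D1:**
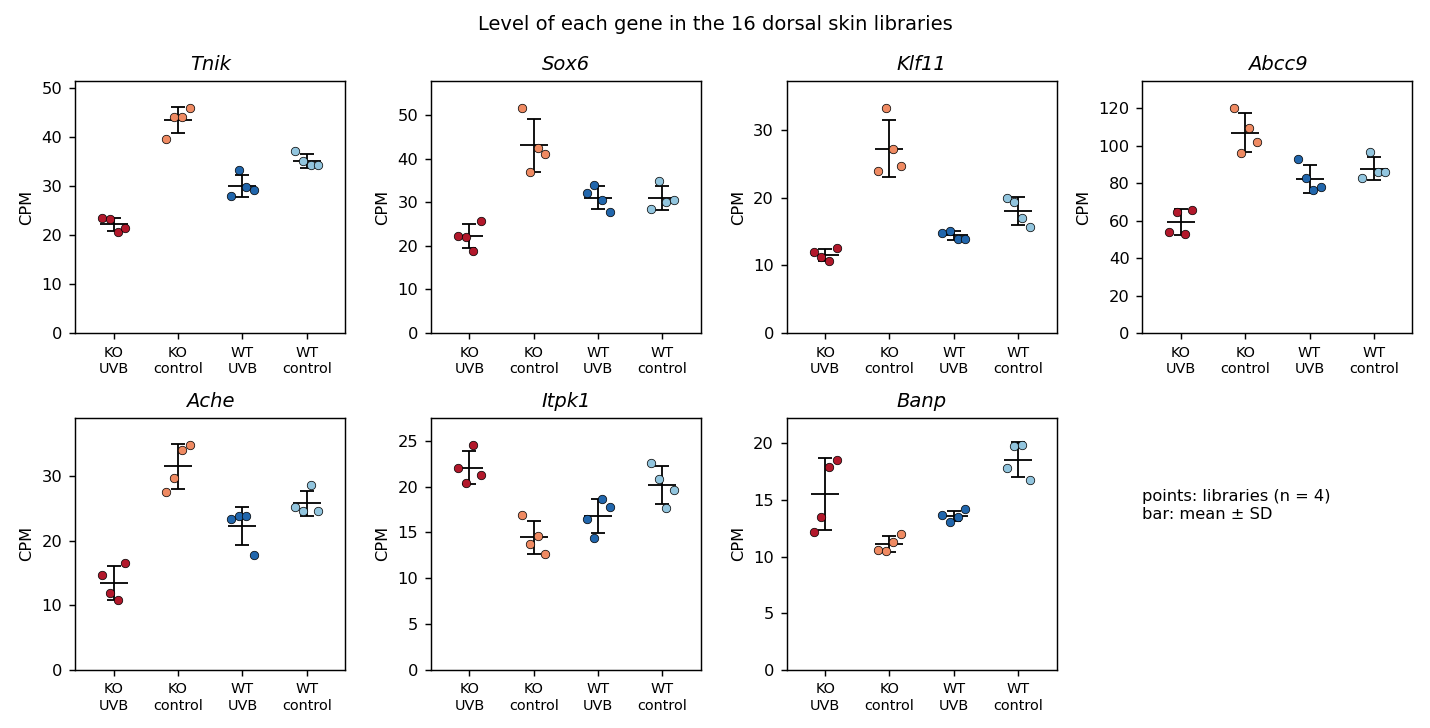
Level of each of the 7 genes in CPM (vertical axis, from 0) in the libraries of the 4 groups (horizontal axis), with points for libraries and bars for mean ± SD, n = 4. KO UVB is the lowest group and KO control the highest for Tnik, Sox6, Klf11, Abcc9 and Ache, while KO control is the lowest for Itpk1 and Banp.

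Group means show that the genes already differed between genotypes without UVB. In KO control against WT control skin, the log2 differences were 0.30 ± 0.07 for Tnik, 0.47 ± 0.11 for Sox6, 0.60 ± 0.11 for Klf11, 0.29 ± 0.10 for Abcc9 and 0.29 ± 0.13 for Ache, against -0.48 ± 0.11 for Itpk1 and -0.74 ± 0.12 for Banp. In KO UVB against WT UVB skin, they were -0.44 ± 0.07, -0.48 ± 0.11, -0.32 ± 0.11, -0.48 ± 0.10 and -0.72 ± 0.13 for the first 5 genes in that order, against 0.39 ± 0.11 for Itpk1 and 0.19 ± 0.12 for Banp. Each gene thus had opposite signs of the KO difference without and with UVB. These comparisons share libraries with the UVB comparisons and with the rule, so the signs are no separate evidence.

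Counts of groups that do not overlap are given with the share over all tested genes. Each of these comparisons is a part of the interaction that chose the 7 genes. The counts therefore describe the choice and are not read as an enrichment. KO UVB lay wholly below KO control for 5 of the 7 genes (11.5% of all tested genes) and wholly above it for 2 (13.6% of all). WT UVB lay wholly below WT control for Tnik, Klf11, Ache and Banp (13.1% of all). KO control lay wholly above WT control for Tnik, Sox6 and Klf11 (3.05% of all) and wholly below it for Itpk1 and Banp (4.63% of all). KO UVB lay wholly below WT UVB for 5 genes (3.89% of all) and wholly above it for Itpk1 (4.27% of all).

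**Figure D2:**
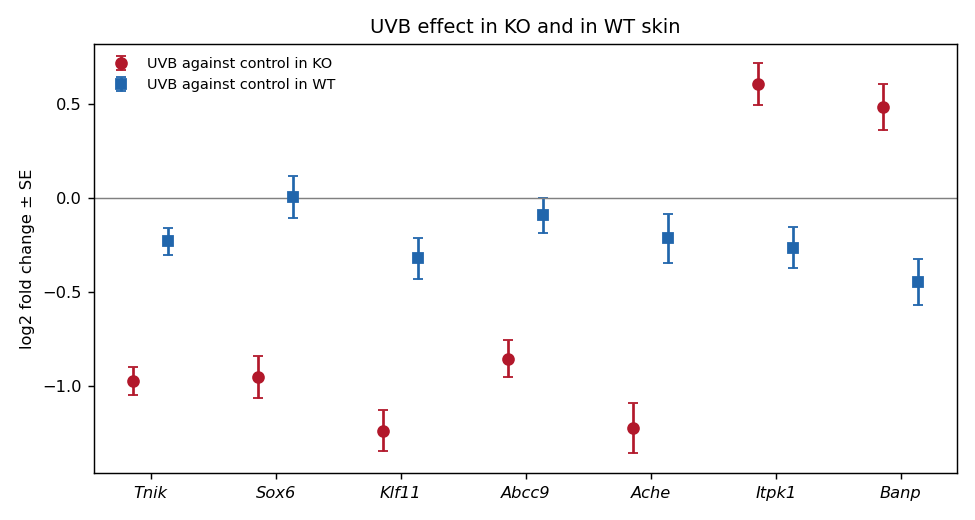
UVB effect on each gene as log2 fold change ± SE (vertical axis), UVB against control, in KO skin (circles) and in WT skin (squares), from 1 model of the 16 libraries. Circles run from -1.24 for Klf11 to 0.61 for Itpk1 and squares from -0.45 for Banp to 0.01 for Sox6.

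Over all 17531 genes, edgeR's quasi-likelihood test called the interaction in 4 at a Benjamini-Hochberg adjusted p under 0.05 (0.0228% of all), which is given as background only, since the rule used this contrast. As a description of the choice, in the order of interaction p the 7 genes stood at ranks 3 (Tnik), 5 (Sox6), 7 (Klf11), 8 (Itpk1), 9 (Abcc9), 11 (Banp) and 12 (Ache). Hba-a2 and Pinlyp, ranked ahead of Tnik, and Angptl8, Fkbp5 and 6530402F18Rik, ranked between the 7, are not among them. Just beyond Ache came Hsph1, with an interaction of 0.93, and Rnase1, with -1.23, so that the choice ends at no gap in size. The number of interaction calls moved from 4 to 2 without KO control library 4, to 7 without KO UVB library 1 or WT control library 3, to 30 without KO control library 1 and to 110 without KO UVB library 4.

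Averaged over KO and WT skin, 5 of the 7 genes fell with UVB by edgeR's quasi-likelihood test, and 20.6% of all tested genes were called lower (41.5% were called in either direction). The mean UVB effect was -0.60 ± 0.05 for Tnik (adjusted p = 8.11e-07), -0.78 ± 0.08 for Klf11 (adjusted p = 2.92e-06) and -0.72 ± 0.09 for Ache (adjusted p = 3.25e-05). In each of these 3 genes all 8 UVB libraries lay below the mean of their own genotype's controls. It was -0.47 ± 0.08 for Sox6 (adjusted p = 0.000254), with 6 of 8 UVB libraries on that side, and -0.47 ± 0.07 for Abcc9 (adjusted p = 6.98e-05), with 7 of 8. For Sox6 and Abcc9 the averaged effect stands almost wholly on KO skin, where the UVB differences were -0.95 and -0.85, against 0.01 and -0.09 in WT skin. Itpk1, at 0.17 ± 0.08 (adjusted p = 0.0828), and Banp, at 0.021 ± 0.086 (adjusted p = 0.866), did not pass, with 4 of 8 UVB libraries on the side of the mean. Low spread helps a gene into the set as it helps this test, since the contrasts share the estimate of spread.

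All 5 calls were lost when a score of anagen follicle markers was added as a covariate, at adjusted p from 0.382 to 0.643, a fit that left 3 of 7283 mean UVB calls. The effects in that fit were -0.37 ± 0.16 for Tnik, -0.39 ± 0.26 for Sox6, -0.45 ± 0.25 for Klf11, -0.54 ± 0.23 for Abcc9 and -0.87 ± 0.30 for Ache, with wider errors for all 5 and effects no nearer to 0 for Abcc9 and Ache. The score ran from -1.09 to 0.053 in the 8 UVB libraries and from -0.084 to 1.64 in the 8 controls, so that it largely runs with treatment and the 2 cannot be fully told apart. In the controls it also ran with genotype, from -0.084 to 0.318 in KO and from 0.976 to 1.64 in WT libraries. With library totals in place of TMM the share of mean UVB calls that were higher was 34.2%, against 50.4%. Transcripts of other cells moved with UVB too: markers of differentiated keratinocytes averaged 32523 ± 16006 CPM in KO UVB and 11297 ± 2456 in KO control skin, and 30206 ± 3930 in WT UVB and 8776 ± 1074 in WT control skin. Their part in the fall of the 5 genes was not tested. In bulk skin, fewer cells of a type and less RNA per cell cannot be told apart.

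Averaged over UVB and control skin, the KO effect passed edgeR's test for none of the 7 genes, against 1.77% of all genes. The largest was -0.28 ± 0.09 for Banp (adjusted p = 0.131), followed by -0.21 ± 0.09 for Ache (adjusted p = 0.315) and 0.14 ± 0.08 for Klf11 (adjusted p = 0.447). At an unadjusted p under 0.05 the count was 2 of 7 (13.9% of all genes), and DESeq2 and limma voom each called 1 of the 7, Banp in both, among 695 and 747 genes in all. The Banp call was also made in edgeR without KO UVB library 4 (-0.32, adjusted p = 0.0425) and without KO UVB libraries 3 and 4 (-0.42, adjusted p = 0.00484). Those fits are unbalanced, so this contrast is not separate in them from the one that chose the genes. The libraries left out had the highest Banp levels of KO UVB skin, 17.96 and 18.5 CPM. These calls are therefore not read as evidence. The adjusted p of Banp ran to 0.884 over the alternatives. Tnik, Sox6, Abcc9 and Itpk1 had mean KO effects between -0.095 and -0.0045.

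The sum of skeletal muscle markers had its group means in the order seen for Tnik, Klf11, Abcc9 and Ache. The 17 tested of 18 markers summed to 14106, 19041, 18195 and 23526 CPM in KO UVB libraries, 46794, 28520, 28465 and 35300 in KO control, 28089, 22273, 28127 and 18976 in WT UVB and 25013, 32032, 23732 and 28972 in WT control libraries. KO UVB lay below KO control without overlap, and the WT groups overlapped. The most abundant were Acta1, skeletal actin, at 3462 ± 798 CPM in KO UVB and 6455 ± 1465 in KO control skin and at 4532 ± 956 in WT UVB and 4613 ± 780 in WT control skin, and the fast myosins Myh1 and Myh4. Myh1 averaged 2791 ± 193 CPM in KO UVB and 4291 ± 1360 in KO control skin, and 5900 ± 916 in WT UVB and 4185 ± 2161 in WT control skin. Myh4 averaged 2949 ± 901 CPM in KO UVB and 6753 ± 2074 in KO control skin, and 1332 ± 670 in WT UVB and 4708 ± 2559 in WT control skin. The order of the sum thus did not hold for each marker: Myh1 was highest and Myh4 lowest in WT UVB skin.

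Of the 17 muscle markers, 15 had a negative interaction, with a median of -0.69 against 0.02 for all genes. None was called by edgeR, DESeq2 or limma voom, and 7 of 17 had an unadjusted p under 0.05 in edgeR (12.8% of all genes). By mean UVB effect 9 were called lower (20.6% of all genes) and 0 higher, with a median of -0.46 against -0.03 for all genes. With a muscle marker score as a covariate, the interactions were -0.84 for Tnik, -0.72 for Sox6, -1.01 for Klf11, -0.58 for Abcc9, -0.98 for Ache, 0.96 for Itpk1 and 1.03 for Banp. No sign turned, which the choice of the genes by this contrast makes likely beforehand. Sox6 and Abcc9 were the genes nearer to 0 by more than their spread within groups. An interaction of mostly the same sign was not particular to the muscle markers. It was negative in 10 of 10 follicle bulge and outer root sheath markers (median -0.41) and 14 of 16 circadian clock genes (median -0.18). Of 8 macrophage markers, 0 had a negative interaction (median 0.88).

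**Figure D3:**
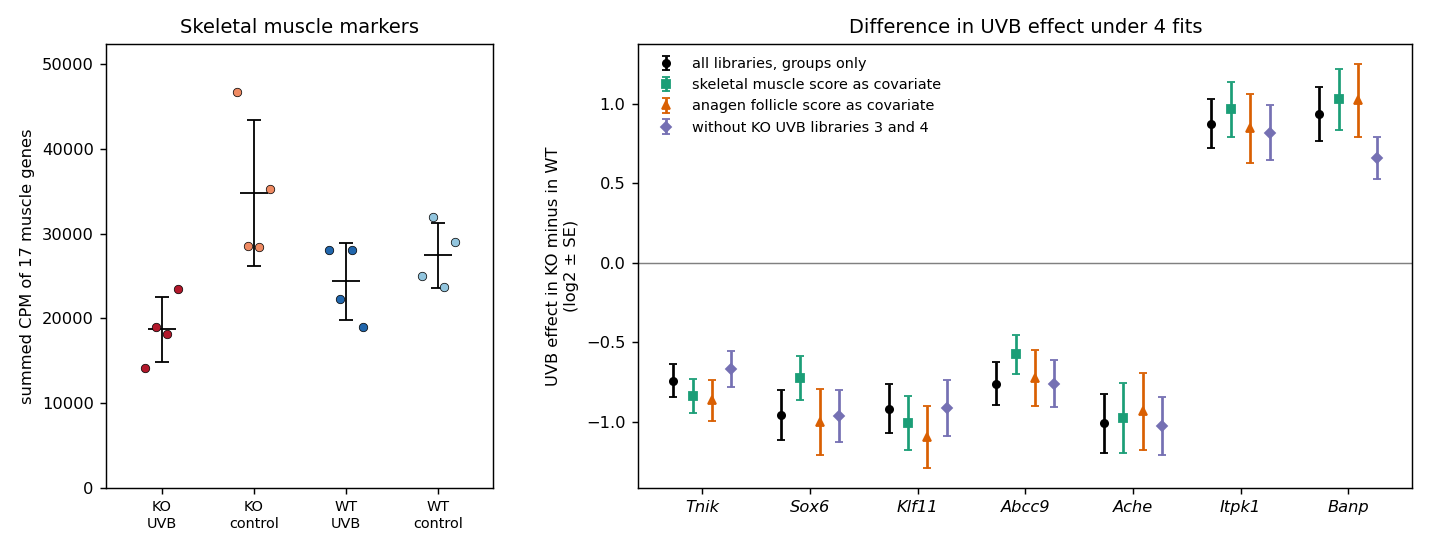
Left, summed CPM of 17 skeletal muscle markers (vertical axis, from 0) in each library of the 4 groups, with mean ± SD, n = 4, where KO UVB averaged 18717 and KO control 34770. Right, the difference in UVB effect, KO minus WT, in log2 ± SE (vertical axis) for each gene under 4 fits, where every gene keeps its sign and Banp is lowest, at 0.66, without KO UVB libraries 3 and 4. The genes were chosen by this difference, so the kept signs are no separate evidence.

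Within groups, the relation of each gene to the muscle sum was looked at over 16 libraries as deviations from group means, in 7 relations with permutation within groups. Abcc9 gave Pearson's r = 0.665 (permutation p = 0.0203) and Spearman's rho = 0.591 (permutation p = 0.0430), and r = 0.545 without the 2 libraries farthest from the median. Sox6 gave r = 0.654 (permutation p = 0.0253) and rho = 0.538 (permutation p = 0.0695), and r = 0.637 without those 2. After adjustment over the 7 relations both had p = 0.0884 for r and 0.206 for rho, above the threshold. The other 5 genes had r between -0.499 and 0.312. Whether muscle content has a part in the interactions beyond these values was not tested.

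Markers of dermal fibroblasts also stood highest in KO control skin, at 57369 ± 1825 CPM, against 37476 ± 4667 in KO UVB, 43859 ± 1675 in WT UVB and 41092 ± 15897 in WT control skin. WT control library 3 held 63208 CPM of them and the other 3 held 29303 to 42121. The most abundant of these markers were the collagen genes Col1a2, Col1a1 and Col3a1. Over the 10 fibroblast markers the interaction had a median of -0.0024, ran from -0.92 to 0.79 and was negative in 5. The order of the sum thus did not hold for each marker. Markers of vascular mural cells, which use SUR2 in their potassium channels, summed to 1764 ± 133 CPM in KO UVB, 2029 ± 216 in KO control, 1774 ± 98.0 in WT UVB and 1936 ± 162 in WT control skin. The most abundant of them, Des, is also a gene of striated muscle, and without it, a choice made after its level was seen, the sums were 955 ± 84.5 in KO UVB, 970 ± 43.1 in KO control, 967 ± 38.9 in WT UVB and 1035 ± 47.8 in WT control skin. Endothelial markers averaged 579 ± 66.5 CPM in KO UVB, 579 ± 45.5 in KO control, 556 ± 51.9 in WT UVB and 601 ± 46.7 in WT control skin. The part of these cells in the Abcc9 values was not tested.

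The genes around each of the 7 were taken from 7 lists of the same or a related pathway or family, 124 tested genes in all. None of the 124 was called in the interaction by edgeR, 18 had an unadjusted p under 0.05 (against 12.8% of all genes), and DESeq2 called 1 and limma voom 5. For the mean KO effect edgeR called 0, 19 had an unadjusted p under 0.05 (against 13.9% of all genes), and DESeq2 called 2 and limma voom 4. The mean UVB effect was called in 62 of the 124, beside 41.5% of all genes, and the accounts of the lists that follow give that effect. Their counts stand beside 21.0% of all genes called higher and 20.6% called lower.

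Of 20 partners and relatives of TNIK, 4 rose and 7 fell with UVB, with a median of 0.0029. Lef1, a Wnt-pathway transcription factor of the hair follicle, averaged 1.58 ± 0.42 CPM in KO UVB and 2.82 ± 0.90 in KO control skin, and 2.02 ± 0.58 in WT UVB and 5.38 ± 0.86 in WT control skin (-1.12 ± 0.19, adjusted p = 0.000256). Tcf7l2, of the same family as Lef1, fell by 0.45 ± 0.10 (adjusted p = 0.00255), and Map4k2, a kinase gene related to Tnik, by 0.45 ± 0.08 (adjusted p = 0.000334). Rap2c, a small GTPase of the group that TNIK binds, rose by 0.26 ± 0.06 (adjusted p = 0.00239). The interactions of the list had a median of 0.04, and 7 of 20 were negative.

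In the Sox family, 2 of 14 tested genes rose and 6 fell with UVB, with a median of -0.27. Sox5, the closest relative of Sox6, averaged 2.56 ± 0.99 CPM in KO UVB and 5.27 ± 0.89 in KO control skin, and 2.49 ± 0.55 in WT UVB and 5.09 ± 0.59 in WT control skin (-1.04 ± 0.17, adjusted p = 0.000252). Its group means were thus close to each other in the UVB groups of both genotypes. Sox10, a factor of Schwann cells and melanocytes, fell (-0.58 ± 0.10, adjusted p = 0.000397), and Sox15 (1.20 ± 0.17, adjusted p = 6.93e-05) and the endothelial factor Sox7 (0.78 ± 0.12, adjusted p = 0.000115) rose.

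Among Klf and Sp factors, listed together with the corepressor gene Sin3a, 1 of 19 genes rose and 8 fell with UVB, with a median of -0.16. Klf9, a glucocorticoid-responsive factor, averaged 143 ± 18.4 CPM in KO UVB and 203 ± 4.23 in KO control skin, and 137 ± 16.98 in WT UVB and 214 ± 51.6 in WT control skin (-0.58 ± 0.11, adjusted p = 0.000519). Sp4 (-0.64 ± 0.12, adjusted p = 0.000462), Klf7 (-0.38 ± 0.07, adjusted p = 0.000517) and the general GC-box factor Sp1 (-0.30 ± 0.07, adjusted p = 0.00233) fell as well. The interactions of the list ran from -0.56 to 0.37, against -0.92 for Klf11.

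Of 11 tested genes of ATP-sensitive potassium channels and the ABCC family, 1 rose and 4 fell with UVB, with a median of -0.45. Kcnj11, which encodes the pore subunit Kir6.2 that pairs with sulfonylurea receptors, averaged 15.3 ± 2.68 CPM in KO UVB and 24.8 ± 7.04 in KO control skin, and 17.8 ± 2.64 in WT UVB and 20.5 ± 4.55 in WT control skin (-0.45 ± 0.14, adjusted p = 0.0177). Kcnj8, singled out after its values were seen because it neighbours Abcc9 in the genome and encodes the vascular pore subunit Kir6.1, gave -0.04 ± 0.14 (adjusted p = 0.855). The transporter genes Abcc5 (-0.49 ± 0.06, adjusted p = 2.23e-05) and Abcc6 (-1.25 ± 0.34, adjusted p = 0.00850) fell, and Abcc3 rose (0.46 ± 0.11, adjusted p = 0.00292). Abcc6 was near the floor, at 0.13 ± 0.08 CPM in KO UVB, 0.56 ± 0.09 in KO control, 0.49 ± 0.27 in WT UVB and 0.68 ± 0.36 in WT control skin. The interactions were -0.49 ± 0.28 for Kcnj11 and -0.41 ± 0.28 for Kcnj8, and neither was called.

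Cholinergic synapse and endplate genes mostly had the same sign as Ache. Of 20 tested genes, 0 rose and 9 fell with UVB, beside 21.0% and 20.6% of all genes, with a median of -0.34. Colq, the collagen tail that anchors acetylcholinesterase at the endplate, averaged 1.51 ± 0.53 CPM in KO UVB and 5.95 ± 1.71 in KO control skin, and 2.11 ± 0.40 in WT UVB and 3.73 ± 0.67 in WT control skin (-1.39 ± 0.17, adjusted p = 2.17e-05). Musk, the receptor kinase that organises the endplate, averaged 3.74 ± 0.34 CPM in KO UVB and 6.57 ± 0.68 in KO control skin, and 3.997 ± 1.31 in WT UVB and 5.14 ± 0.94 in WT control skin (-0.58 ± 0.14, adjusted p = 0.00409). The acetylcholine receptor subunit genes Chrnd (-1.005 ± 0.254, adjusted p = 0.00527) and Chrnb4 (-1.40 ± 0.31, adjusted p = 0.00218) fell too, with every group mean under 2 CPM.

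The interactions of the cholinergic genes were negative in 18 of 20, with a median of -0.51 against 0.02 for all genes and -1.01 for Ache. None was called by edgeR or DESeq2, 1 was called by limma voom, and 5 of 20 had an unadjusted p under 0.05 in edgeR (12.8% of all genes). With the muscle score as a covariate the median was -0.33 and 3 were called lower. That fit called 285 of all 17531 genes in either direction, against 4 without the score. Without KO UVB libraries 3 and 4 the median was -0.45 with 0 called, where 67 of all genes were called. The endplate is part of muscle, so the endplate genes of this list and the muscle markers are not separate sources. The list also holds cholinergic genes that are not of the endplate, such as Chrnb4.

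**Figure D4:**
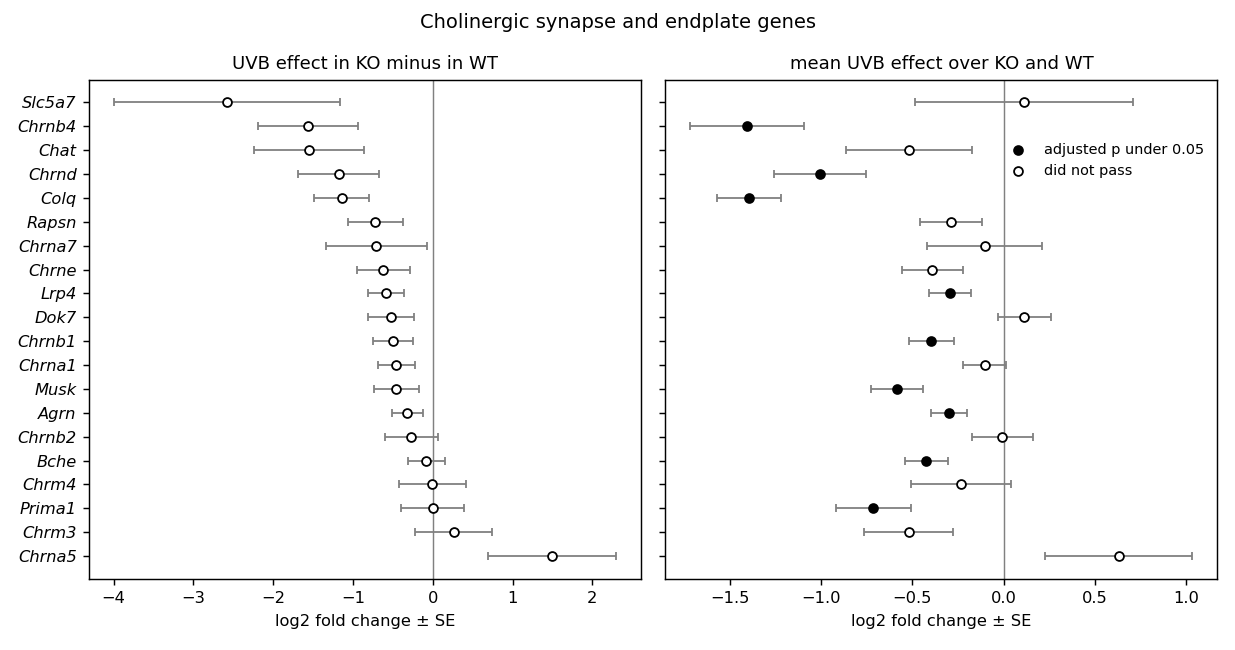
Cholinergic synapse and endplate genes (rows, ordered by the left panel) as log2 fold change ± SE, for the difference of UVB effects (KO minus WT) on the left and for the mean UVB effect on the right, with filled points at an adjusted p under 0.05 in edgeR. The left panel has 18 of 20 points below 0 and none filled, and the right panel has 9 filled points, all below 0.

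Among 25 genes of inositol phosphate metabolism, 5 rose and 9 fell with UVB, with a median of -0.045. Ippk, which makes inositol hexakisphosphate at the end of the route that ITPK1 feeds, averaged 19.0 ± 3.96 CPM in KO UVB and 11.7 ± 0.98 in KO control skin, and 18.4 ± 2.21 in WT UVB and 11.4 ± 1.21 in WT control skin (0.69 ± 0.10, adjusted p = 8.41e-05). The phospholipase gene Plcb4 (-0.47 ± 0.07, adjusted p = 0.000145), the phosphatase gene Inpp4b (-0.53 ± 0.10, adjusted p = 0.000896) and the kinase gene Itpkb (-0.41 ± 0.08, adjusted p = 0.00105) fell. Isyna1, the entry enzyme of inositol synthesis, had the highest interaction of the list, at 0.52 ± 0.10.

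The list set beside Banp held BEN-domain genes and other nuclear regulators, among them Mdm2, Hdac1 and Cux1, which are no BEN-domain genes. Of its 16 genes, 3 rose and 3 fell with UVB, with a median of -0.034. Mdm2, the ubiquitin ligase of p53, averaged 64.2 ± 6.26 CPM in KO UVB and 53.9 ± 3.81 in KO control skin, and 62.8 ± 2.81 in WT UVB and 53.1 ± 1.64 in WT control skin (0.25 ± 0.05, adjusted p = 0.00177). Hdac1, a histone deacetylase, rose (0.29 ± 0.08, adjusted p = 0.00726), and Cux1 (-0.34 ± 0.06, adjusted p = 0.000624) and Bend5 (-0.53 ± 0.16, adjusted p = 0.0146), another BEN-domain gene, fell. The interactions of the list had a median of 0.08 and ran up to 0.40, against 0.93 for Banp.

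The genes whose levels ran most like each of the 7 were taken by Pearson's r of log2 CPM over the 16 libraries, among 11993 candidates. The r values describe the 4 groups and the libraries together and carry no test. Closest to Tnik were Arhgef28 (r = 0.953), Cdh4 (r = 0.949) and Prob1 (r = 0.948), and closest to Ache were Prob1 (r = 0.969), Cbs (r = 0.939) and Sema3b (r = 0.938). Prob1 averaged 20.2 ± 2.39 CPM in KO UVB and 41.5 ± 4.42 in KO control skin, and 27.8 ± 3.00 in WT UVB and 34.1 ± 2.15 in WT control skin. Closest to Sox6 were Speg (r = 0.936), Myoz3 (r = 0.927) and Scn4a (r = 0.925), and closest to Abcc9 were Speg (r = 0.960), Ttn, which encodes the sarcomere protein titin (r = 0.950), and Prkaa2 (r = 0.943). Ttn averaged 1471 ± 129 CPM in KO UVB and 3277 ± 403 in KO control skin, and 2313 ± 530 in WT UVB and 2461 ± 155 in WT control skin. Closest to Klf11 were Tmem8b (r = 0.935), Tead1 (r = 0.928) and the long noncoding RNA gene Meg3 (r = 0.925).

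For the genes that were higher with UVB in KO skin the nearest likenesses were looser. Closest to Itpk1 were Sap30 (r = 0.870), Isyna1 (r = 0.844) and Sdf2l1 (r = 0.835), and closest to Banp were Slc39a10 (r = 0.844), Rnf145 (r = 0.834) and Jaml (r = 0.831). Isyna1, also in the inositol list, averaged 31.5 ± 2.15 CPM in KO UVB and 25.9 ± 1.43 in KO control skin, and 26.6 ± 0.92 in WT UVB and 31.4 ± 1.86 in WT control skin. Sap30 averaged 12.3 ± 2.25 CPM in KO UVB and 7.18 ± 0.63 in KO control skin, and 9.49 ± 0.98 in WT UVB and 9.88 ± 1.22 in WT control skin. Slc39a10, a zinc transporter gene, averaged 47.9 ± 4.91 CPM in KO UVB and 42.7 ± 2.32 in KO control skin, and 48.6 ± 2.38 in WT UVB and 59.7 ± 5.29 in WT control skin.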

How the data were processed

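RNA of 16 dorsal skin samples was extracted with Trizol, poly(A)-enriched and made into directional libraries, per the labels' protocols. Reads were aligned to GRCm39 with STAR, per the submitters' processing notes. Its version and the annotation were not given in the sources used here. Deposited values are raw read counts per gene, and the reverse-strand column was used, since the forward column held 3.91 to 5.25% of stranded reads. Lines for unmapped (10.7 to 19.5%), no-feature (7.25 to 10.2%) and ambiguous reads (1.18 to 1.42%) were left out. A combined table with 17 unlabelled value columns was not used here.

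Symbols came from a GENCODE annotation of another build, used for names only (52083 of 55359 IDs). Counts were fitted with edgeR 4.0.16 in R 4.3.3 (quasi-likelihood, robust, TMM, filterByExpr, 4 groups, no block), with p-values adjusted by Benjamini-Hochberg over 17531 genes. The common biological coefficient of variation was 0.18. The fit was also run on simulated counts with planted interactions and no other group effects, a setting unlike these data. That run is no evidence on the results given here. CPM are TMM-normalised, and log2 CPM have a prior count of 2. Alternatives were DESeq2 1.42.0, limma 3.58.1 (voom with quality weights), other scaling, filters of 1 read or a mean count of 100, unstranded counts, left-out libraries, a replicate block and marker scores as covariates. The labels give no batch.

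The 7 genes, the gene lists and the alternatives were chosen with earlier results of these data known. Named from the lists are at most 4 called genes per contrast with the smallest adjusted p, from the likeness search 3 per gene with a mean count of at least 100, and from a marker list the 3 most abundant members.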

Additional observations from a re-analysis of the deposited data

Results flagged for a closer look

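In 28 groups of 4 libraries (7 genes in 4 groups) a library far from the other 3 was looked for by Dixon's ratio, the gap to the nearest library over the range of the group. Chance gives such a library in about 1 in 20 groups, and 2 were found, both for Ache. WT UVB library 4 had 17.8 CPM of Ache, and the other 3 had 23.3 to 23.9 CPM, a ratio of 0.910. WT control library 3 had 28.7 CPM, and the other 3 had 24.6 to 25.3 CPM, a ratio of 0.838. Leaving out 1 library at a time, the Ache interaction ran from -1.12 to -0.92.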

How the results depend on the processing

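The interaction, called in 4 genes, was called in 210 with DESeq2, 438 with limma voom, 67 without KO UVB libraries 3 and 4, 7 with the replicate block, 285 with the muscle score and 0 with the anagen score as a covariate (edgeR, 1588 at an unadjusted p under 0.05), and in 2 to 110 leaving out 1 library. The mean UVB effect, called in 7283, was called in 3 with the anagen score. The mean KO effect, called in 310, was called in 695 (DESeq2), 747 (limma voom), 172 (mean count of at least 100), 487 (without KO UVB libraries 3 and 4), 202 (replicate block), 478 (muscle score) and 23 (anagen score), and in 179 to 386 leaving out 1 library. The cause of these changes was not tested. The interactions of the 7 genes kept their sign in all 189 values, 6 of which moved by more than the spread within groups. The genes were chosen by this contrast in these same libraries. The kept signs therefore follow largely from the choice and are no separate evidence. The mean UVB effect of Banp changed sign to -0.032 (limma voom), -0.061 (library totals), -0.12 (without KO UVB libraries 3 and 4) and -0.14 (anagen score), and ran from -0.010 to 0.080 leaving out 1 library. The mean KO effect turned to 0.056 for Tnik (anagen score) and to 0.013 (muscle score) and 0.042 (anagen score) for Sox6, which ran from -0.054 to 0.031 leaving out 1 library. Itpk1 passed for mean UVB in edgeR without KO control library 1, WT UVB library 2 or WT control library 1 (lowest adjusted p = 0.0251, range to 0.819). Fits with a library left out are unbalanced, so the mean effects are not separate in them from the contrast that chose the genes. Same-numbered libraries showed no clear shared deviation (r from -0.403 to 0.219 over 24 pairs, 3 above 0.1). Differently numbered libraries were not compared, so whether the numbers pair libraries was not settled. The replicate block is given only here, with 6852 mean UVB calls. The 7 genes had 197 to 2471 reads per library, the depth behind their values.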
